A study of Mus musculus with 6 samples.

Results

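Insulin-like growth factor 1 (Igf1), its receptor (Igf1r) and 6 genes for insulin-like growth factor binding proteins (Igfbp2 to Igfbp7) were examined in mouse muscle that had received TFEB, a transcription factor best known as a switch for lysosome and autophagy genes. The genes were taken by platform symbol. A probe set, the group of short oligonucleotides with which an Affymetrix array reads a transcript, was used only where one of these symbols was the sole one assigned to it. This gave 19 of the 22626 probe sets tested, for 8 of the 12393 genes on the array. Igf1 had 3 probe sets, Igf1r had 2, Igfbp4 had 6, Igfbp5 had 2 and Igfbp7 had 3, whereas Igfbp2, Igfbp3 and Igfbp6 had 1 each.

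The TFEB overexpression group was 3 C57BL/6 mice whose muscle was injected with an adeno-associated viral vector (AAV) that carried mouse Tfeb cDNA. The GFP control group was 3 C57BL/6 mice injected in the same way with an AAV for green fluorescent protein, so both groups had received a virus and an injection. All 6 animals were wild-type and 1 month old per the labels, although the study's text calls them adult, and each gave total RNA for 1 array. The cytomegalovirus (CMV) promoter of both vectors is not specific to muscle fibres, and a piece of muscle also holds vessels, connective tissue and immune cells. The values are log2 levels, and every direction below is that of the arrays labelled TFEB overexpression (TFEB arrays) relative to those labelled GFP control (GFP arrays).

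IGF1 is made in the liver under growth hormone and also locally in muscle, where it is known to promote growth and repair of fibres. It acts through IGF1R, a receptor tyrosine kinase that signals through insulin receptor substrates to AKT and mTOR and through RAS to ERK. Secreted binding proteins hold most IGF outside cells. Depending on the protein and on its cleavage by proteases they keep the ligand from the receptor, prolong its life or carry it to the cell surface.

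GFP array 2 stood apart from its group before any comparison was made. It differed over 2-fold from GFP arrays 1 and 3 at 844 and 725 probe sets, whereas GFP arrays 1 and 3 differed at 87 and pairs of TFEB arrays at 45 to 101. The contractile genes that define muscle were bright on all 6 arrays, with a mean level over 12 fibre genes of 13.9 to 13.92 in GFP control and 13.86 to 13.9 in TFEB overexpression. Tfeb itself was lower in the TFEB arrays, with a log2 change of -0.77 ± 0.097 (SE, n = 3 arrays per group, limma adjusted p = 0.0024). The sources do not place this probe set relative to the delivered cDNA, so it cannot serve as a check of the vector, and directions rest on the labels alone.

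A probe set was called changed at a limma adjusted p under 0.05 together with a change of at least 1.5-fold. By this rule Igfbp4, Igfbp7, Igf1 and Igfbp3 rose in the TFEB arrays and no member fell. At the brightest probe set of each gene the rise was 2.68-fold for Igfbp4, 2.06-fold for Igfbp7, 1.77-fold for Igf1 and 1.75-fold for Igfbp3. Igf1r, Igfbp2, Igfbp5 and Igfbp6 had no probe set past both limits. Of the 19 probe sets, 9 were higher and 0 lower, where over all probe sets 13.6% were called, 7.51% higher and 6.11% lower. Probe sets of the same gene are not separate observations, and 5 of the 9 read Igfbp4 and 2 read Igfbp7. By gene, at the brightest probe set, 4 of 8 members were higher, beside 8.62% of all genes higher and 4.90% lower. With the adjusted p alone, 12 member probe sets were called, 11 of them higher and 1 lower, beside 32.6% of all probe sets. The 2 groups did not overlap at 14 of the 19, of which 11 were higher and 3 lower, beside 49.9% of all probe sets. The median log2 change was 0.48 over the member probe sets and -0.06 over all probe sets. In RNA from whole muscle, fewer or more cells of a type cannot be told apart from less or more RNA per cell.

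**Figure D1:**
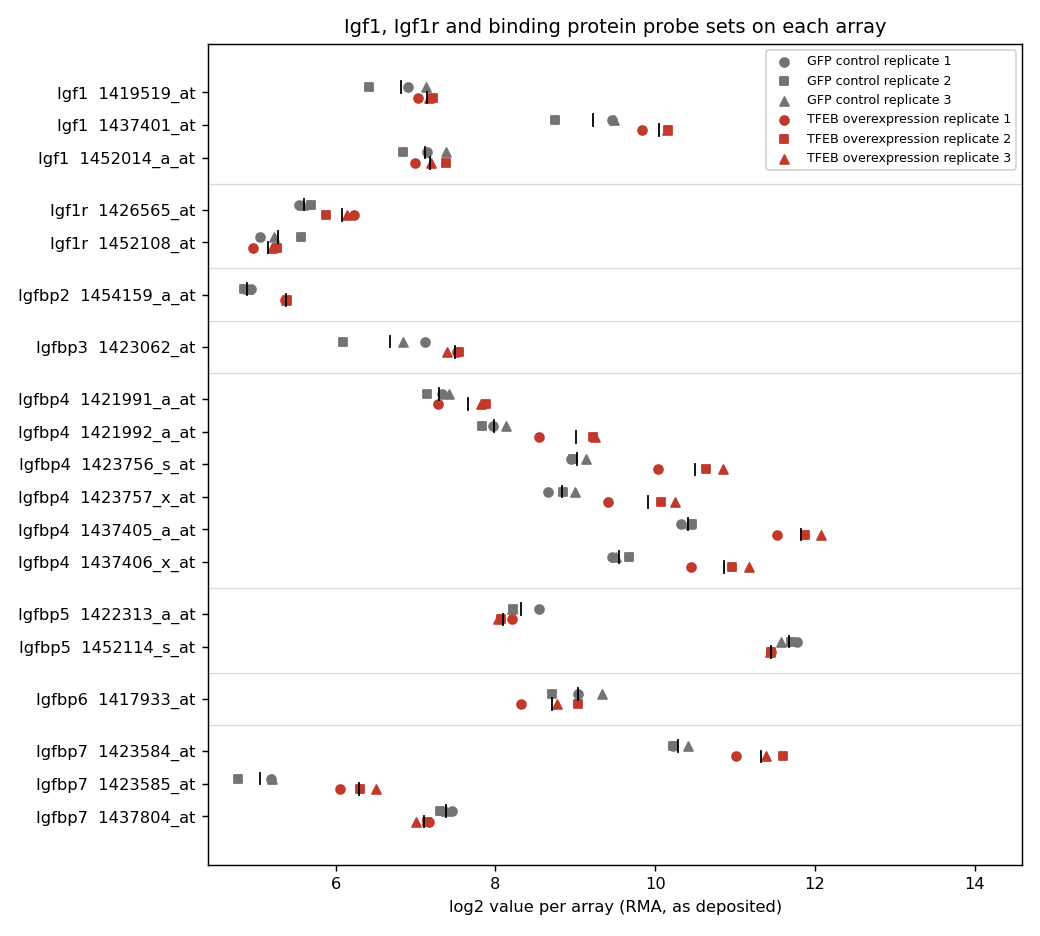
Log2 value (RMA, as deposited; horizontal axis) of each of the 19 member probe sets on each array, GFP control in grey and TFEB overexpression in red, marker shape giving the replicate number and black ticks the group mean. The groups are apart at 5 of the 6 Igfbp4 probe sets, and GFP array 2 is the lowest array at every Igf1 and Igfbp3 probe set; levels of different probe sets are not comparable with each other.

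Igf1, the ligand, was higher in the TFEB arrays at 1 of its 3 probe sets. At 1437401_at the GFP arrays read 9.46, 8.74 and 9.48 and the TFEB arrays 9.84, 10.16 and 10.15. All TFEB arrays lay above all GFP arrays, and the lowest value was that of GFP array 2. The log2 change was 0.82 ± 0.21 (SE, n = 3 per group), 1.77-fold, with a limma adjusted p of 0.027. This call depended on single arrays. Without GFP array 2 the change was 0.58 (limma adjusted p = 0.0082), just under the fold limit of 0.585 on the log2 scale. Without TFEB array 2 or TFEB array 3 the limma adjusted p rose to 0.082 and 0.092 at changes of 0.77.

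The other Igf1 probe sets did not pass. At 1419519_at the GFP arrays read 6.91, 6.42 and 7.13 and the TFEB arrays 7.03, 7.22 and 7.17, a change of 0.32 ± 0.18 (limma adjusted p = 0.20, 95% interval -0.10 to 0.75). At 1452014_a_at the GFP arrays read 7.14, 6.84 and 7.38 and the TFEB arrays 6.99, 7.38 and 7.19, a change of 0.07 ± 0.16 (limma adjusted p = 0.77, 95% interval -0.31 to 0.45). The groups overlapped at both, and GFP array 2 was again the lowest. The change at 1437401_at exceeded that at 1452014_a_at by 0.75 on the log2 scale. The exact permutation test over the 6 arrays gave p = 0.1 for this difference (two-sided), the smallest p that 3 against 3 arrays allow. The mean over the 3 probe sets changed by 0.40 (limma adjusted p = 0.125), so the Igf1 call held for the brightest probe set and not for the mean. The sources do not give the stretch of transcript that each probe set reads.

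Igf1r, the receptor, was not called at either probe set. Both were rather dim, with mean levels at percentiles 40.6 (1426565_at) and 32.1 (1452108_at) of all probe sets. At 1426565_at the GFP arrays read 5.54, 5.69 and 5.58 and the TFEB arrays 6.23, 5.88 and 6.14. The TFEB arrays lay above the GFP arrays without overlap, and the change of 0.48 ± 0.11 had a limma adjusted p of 0.016 but stayed under the fold limit (95% interval 0.22 to 0.73). Without GFP array 1, GFP array 3 or TFEB array 3 the limma adjusted p was 0.056, 0.057 and 0.061. At 1452108_at the GFP arrays read 5.05, 5.56 and 5.23 and the TFEB arrays 4.97, 5.27 and 5.20. Here the groups overlapped, and the change was -0.14 ± 0.15 (limma adjusted p = 0.51, 95% interval -0.49 to 0.22). The difference between the 2 changes, 0.61 on the log2 scale, had the smallest exact permutation p that the design allows, 0.1.

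Among the binding proteins, Igfbp4 and Igfbp7 had the largest called changes, and Igfbp2 was the member with a CACGTG in its promoter window. CACGTG is the core of the E-box that TFEB is known to recognise. The 250 bases before the RefSeq start of these 3 genes (assembly GRCm38.p6, written 5′ to 3′ on the gene's strand) are shown for that reason, with capitals marking every E-box (CANNTG) and every TATAAA. They lie at chr11:99040994-99041243 on the plus strand for Igfbp4, at chr5:77408046-77408295 on the minus strand for Igfbp7 and at chr1:72824230-72824479 on the plus strand for the first of the pair of starts of Igfbp2.
Igfbp4: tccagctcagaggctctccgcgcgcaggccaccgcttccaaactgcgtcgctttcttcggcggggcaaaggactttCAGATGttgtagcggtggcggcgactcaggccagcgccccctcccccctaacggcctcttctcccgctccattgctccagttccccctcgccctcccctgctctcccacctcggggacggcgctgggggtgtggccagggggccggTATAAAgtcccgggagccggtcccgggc
Igfbp7: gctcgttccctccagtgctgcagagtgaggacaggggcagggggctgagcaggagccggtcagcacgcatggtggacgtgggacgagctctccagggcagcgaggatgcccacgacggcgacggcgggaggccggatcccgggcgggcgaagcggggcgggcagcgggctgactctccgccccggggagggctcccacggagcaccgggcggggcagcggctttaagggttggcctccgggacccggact
Igfbp2: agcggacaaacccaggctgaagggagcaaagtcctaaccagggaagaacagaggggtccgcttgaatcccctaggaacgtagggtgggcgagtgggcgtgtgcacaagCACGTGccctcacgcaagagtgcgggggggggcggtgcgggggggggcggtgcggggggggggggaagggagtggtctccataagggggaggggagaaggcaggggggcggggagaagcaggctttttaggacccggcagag
The Igfbp4 window held 1 E-box, and its TATAAA began 28 bases before the start used. That start was not at the outer edge of the gene in RefSeq. The Igfbp7 window was 74.0% G and C, with 26 CpG pairs, and held neither motif. The Igfbp2 window held a CACGTG that began 142 bases before the start. Over the 9 windows of the 8 genes, the CACGTG core was found in 1, any E-box in 7 and the TATAAA motif in 1. Over 32851 windows of the same length in RefSeq, 6.0% held the CACGTG core, 66.2% any E-box and 7.6% the TATAAA motif. Every CACGTG match is also an E-box, both motifs read the same way on either strand, and TATAAA was searched on the gene's strand. A match describes these letters and is not a binding site.

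Igfbp4, whose protein is known as an inhibitor of IGF action that the protease pappalysin releases by cleavage, rose at 5 of its 6 probe sets. At the brightest, 1437405_a_at, the GFP arrays read 10.33, 10.46 and 10.44 and the TFEB arrays 11.53, 11.88 and 12.07. The groups did not overlap, and GFP array 2 did not stand apart here. The change was 1.42 ± 0.14 (SE, n = 3 per group), 2.68-fold, with a limma adjusted p of 0.0013 and a 95% interval of 1.08 to 1.76. It was 1.44 (limma adjusted p = 0.00076) without GFP array 2.

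The largest member change was that of Igfbp4 at 1423756_s_at. The GFP arrays read 8.95, 8.98 and 9.14 and the TFEB arrays 10.03, 10.63 and 10.85, a change of 1.49 ± 0.20 or 2.80-fold (limma adjusted p = 0.0032). A further probe set, 1437406_x_at, read 9.46, 9.67 and 9.51 in the GFP arrays and 10.45, 10.97 and 11.18 in the TFEB arrays, a rise of 2.50-fold (limma adjusted p = 0.0034). The groups did not overlap at either. In Affymetrix naming the endings s and x mark probe sets that may also read transcripts other than the named one, so these and 1423757_x_at are less certain as measures of Igfbp4.

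Igfbp4 at 1423757_x_at read 8.66, 8.84 and 8.99 in the GFP arrays and 9.40, 10.07 and 10.25 in the TFEB arrays, a rise of 2.11-fold (limma adjusted p = 0.012). At 1421992_a_at the values were 7.98, 7.83 and 8.13 in the GFP arrays and 8.54, 9.23 and 9.25 in the TFEB arrays, a rise of 2.04-fold (limma adjusted p = 0.010). The groups were apart at both. At 1421991_a_at they overlapped, with 7.33, 7.15 and 7.42 in the GFP arrays and 7.28, 7.88 and 7.82 in the TFEB arrays, and the change of 0.36 ± 0.17 did not pass (limma adjusted p = 0.15, 95% interval -0.04 to 0.77). TFEB array 1 was the lowest of the TFEB arrays at all 6 Igfbp4 probe sets. The change at 1421991_a_at was smaller than that at 1437405_a_at by 1.06 on the log2 scale, with the smallest exact permutation p the design allows, 0.1.

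Igfbp7, a secreted protein of low affinity for IGF that is found around blood vessels, rose at 2 of its 3 probe sets. At 1423584_at the GFP arrays read 10.23, 10.23 and 10.41 and the TFEB arrays 11.01, 11.60 and 11.39. The groups did not overlap, and the change was 1.04 ± 0.15, 2.06-fold (limma adjusted p = 0.0039, 95% interval 0.68 to 1.41). At 1423585_at the GFP arrays read 5.19, 4.77 and 5.20 and the TFEB arrays 6.05, 6.31 and 6.50, a change of 1.23 ± 0.16 or 2.35-fold (limma adjusted p = 0.0027). Both changes stayed past the limits without GFP array 2, at 1.01 and 1.09.

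The other Igfbp7 probe set, 1437804_at, differed in the opposite direction. The GFP arrays read 7.46, 7.30 and 7.39 and the TFEB arrays 7.16, 7.14 and 7.001. The TFEB arrays lay below the GFP arrays without overlap. The change of -0.28 ± 0.081 had a limma adjusted p of 0.037 and a 95% interval of -0.47 to -0.09, and stayed under the fold limit. It was the member probe set that was lower by the adjusted p alone. That result depended on single arrays and on scaling. The limma adjusted p was 0.062 to 0.118 when any one array other than GFP array 2 was left out. It was 0.113 when arrays were scaled to fast fibre genes. The changes at 1423584_at and 1437804_at differed by 1.33 on the log2 scale, with the smallest exact permutation p the design allows, 0.1. The sequences the probe sets read were not used here, so what separates them was not tested.

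**Figure D2:**
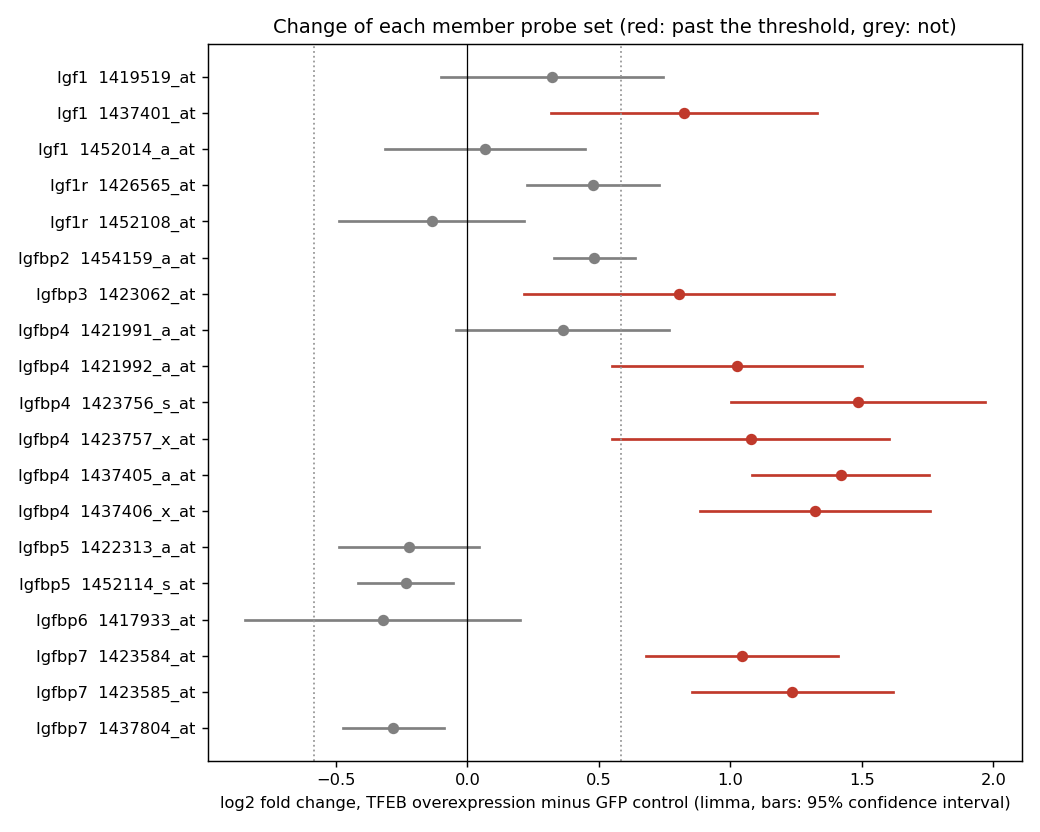
Log2 fold change of each member probe set, TFEB overexpression minus GFP control (horizontal axis), with its 95% confidence interval from limma (n = 3 arrays per group); red marks probe sets past the threshold, grey the others, and dotted lines the fold limit. The 9 red probe sets belong to Igf1, Igfbp3, Igfbp4 and Igfbp7 and lie between 0.80 and 1.49.

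Igfbp3, the chief carrier of IGF in blood, rose at its only probe set, 1423062_at. The GFP arrays read 7.12, 6.09 and 6.84 and the TFEB arrays 7.52, 7.55 and 7.40. The groups did not overlap, the TFEB arrays were close together, and the GFP arrays were spread by GFP array 2. The change was 0.80 ± 0.25, 1.75-fold, with a limma adjusted p of 0.047 and a 95% interval of 0.22 to 1.39. Without GFP array 2 it was 0.51 (limma adjusted p = 0.011), under the fold limit. The call was lost in 10 of 14 alternative settings, over which the change ran from 0.51 to 1.02 and the adjusted p from 0.011 to 0.14. It was lost when any one of GFP arrays 2 and 3 and TFEB arrays 1, 2 and 3 was left out, which with arrays other than GFP 2 gave limma adjusted p-values of 0.088, 0.113, 0.12 and 0.104 in that order.

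Igfbp2, a binding protein that also carries an integrin-binding motif, was read by the dim probe set 1454159_a_at. The GFP arrays read 4.94, 4.85 and 4.90 and the TFEB arrays 5.36, 5.40 and 5.37. The groups were apart, and replicates within a group differed by less than the groups did. The change of 0.48 ± 0.065 had a limma adjusted p of 0.0030 and stayed under the fold limit (95% interval 0.33 to 0.64). The TrpnX control probe sets, for a transcript absent from mouse, averaged 2.64 to 2.94 on these arrays. This range comes from a single control transcript and does not show that Igfbp2 was detected. The brightness filter left Igfbp2 out.

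Igfbp5, which binds to the extracellular matrix and is known from muscle differentiation, was not called at either probe set. At 1452114_s_at the GFP arrays read 11.78, 11.70 and 11.57 and the TFEB arrays 11.46, 11.45 and 11.44, a change of -0.24 ± 0.076 (limma adjusted p = 0.054, 95% interval -0.42 to -0.05). At 1422313_a_at the GFP arrays read 8.54, 8.22 and 8.21 and the TFEB arrays 8.20, 8.07 and 8.03, a change of -0.22 ± 0.11 (limma adjusted p = 0.17, 95% interval -0.49 to 0.04). At both, every TFEB array lay below every GFP array, by a narrow margin at the latter. Igfbp5 and Igfbp2 are neighbours on chromosome 1 in RefSeq, and their changes had opposite signs.

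Igfbp6, which is known to prefer IGF2 over IGF1, was not called. At 1417933_at the GFP arrays read 9.03, 8.71 and 9.34 and the TFEB arrays 8.32, 9.03 and 8.77. The groups overlapped, and the change was -0.32 ± 0.22 (limma adjusted p = 0.29, 95% interval -0.85 to 0.20).

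The genes around the members were read from 4 lists with 67 entries, of which 56 were measured, each by its probe set of highest mean. Of the 56, 6 were higher and 8 lower, where 8.62% of all genes were higher and 4.90% lower. The lists were written with earlier results of these data known, so their counts are a description.

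Of the other ligands, receptors and carriers, listed together with Igf2bp1 and Igf2bp3 for proteins that bind Igf2 mRNA, 2 of 9 measured rose and 1 fell, and the median log2 change was -0.24, beside -0.05 over all genes. Igf2, the fetal ligand of the same receptor, read 8.20, 7.68 and 8.06 in the GFP arrays and 11.50, 11.52 and 11.77 in the TFEB arrays. Its rise, 12.3-fold (limma adjusted p = 0.00025), was larger in size than that of any member. Igf2r, which clears IGF2 and sorts lysosomal enzymes, rose 1.69-fold (limma adjusted p = 0.0017). Igfals, the acid-labile subunit that joins IGFBP3 in blood, had a change of -0.59 ± 0.13 (limma adjusted p = 0.017) and fell just past the fold limit, a call lost without GFP array 3 (-0.45) or TFEB array 3 (limma adjusted p = 0.064). The insulin receptor Insr changed by -0.03 ± 0.063, and Igfbp1, whose gene lies beside Igfbp3 on chromosome 11, by -0.24 ± 0.10, neither called. Both were dim. Igfbp1 averaged 3.27 in GFP control and 3.03 in TFEB overexpression, near the TrpnX control probe sets (2.64 to 2.94), and Insr 4.93 and 4.90. A change of either gene may therefore have been missed, and the list median is the Igfbp1 value itself.

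Of the proteases that cleave binding proteins and their inhibitors, 1 of 9 measured rose and 0 fell, and the median was -0.09 (0.011 when the arrays were scaled to fast fibre genes). Adam12, a metalloprotease known to cleave IGFBP3 and IGFBP5, rose 1.75-fold (limma adjusted p = 0.025), a call lost without GFP array 3, TFEB array 2 or TFEB array 3. The call was also lost with the two-tailed equal-variance test and with the replicate block. At the Adam12 probe set of smallest p the change was 0.57, under the fold limit. Pappa, the protease for IGFBP4, changed by -0.06 ± 0.12, and its inhibitors Stc1 and Stc2 by -0.03 ± 0.090 and -0.23 ± 0.095, none of them called.

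Growth hormone signalling is known to drive Igf1 transcription in liver. Of 10 genes of that pathway, its inhibitors included, 4 fell, 0 rose, and the median log2 change was -0.51. The kinase gene Jak2 fell by 1.40 on the log2 scale (limma adjusted p = 0.00026) and the transcription factor gene Stat5b by 1.02 (limma adjusted p = 0.0011). The receptor gene Ghr fell by 0.65 (limma adjusted p = 0.0043), from 11.33, 11.12 and 11.39 in the GFP arrays to 10.69, 10.70 and 10.52 in the TFEB arrays. The feedback inhibitor gene Socs2 fell by 0.84 (limma adjusted p = 0.039), but leaving out any one array other than GFP array 2 took its limma adjusted p to between 0.085 and 0.11. With arrays scaled to fast fibre genes, 2 of the 10 were called lower, and Ghr (-0.54) and Socs2 lost their calls. Cish, a growth hormone target, read 9.09, 7.53 and 9.34 in the GFP arrays and 7.69, 7.17 and 7.38 in the TFEB arrays, and its change of -1.24 ± 0.46 did not pass (limma adjusted p = 0.079). Without GFP array 2 the change was -1.80 (limma adjusted p = 0.000395). In that setting 5 of the 10 genes were lower and 1 higher, which was Socs3 at 1.02 (limma adjusted p = 0.0074). The low GFP value of Cish was again on GFP array 2, which was also where Igf1 and Igfbp3 were lowest.

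Of the genes below the receptor, 3 of 28 measured rose and 3 fell, with a median of 0.03, which ran from -0.18 to 0.14 over other settings. Without GFP array 2, 4 rose and 6 fell. Those that rose were Grb10 (3.75-fold, limma adjusted p = 0.00049) and Grb14 (1.88-fold, limma adjusted p = 0.0026), adaptors known to restrain insulin and IGF1 receptors, and the kinase gene Akt1, by 1.17 on the log2 scale (limma adjusted p = 0.0011). Those that fell were Tsc1, an inhibitor of mTOR complex 1 (by 0.92, limma adjusted p = 0.0021, and by 0.51 as the mean of its probe sets, under the fold limit), Sos2, an activator of RAS (by 0.83, limma adjusted p = 0.0044), and Irs2, an insulin receptor substrate (by 0.61, limma adjusted p = 0.0075, and by 0.51 without GFP array 1, under the fold limit).

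**Figure D3:**
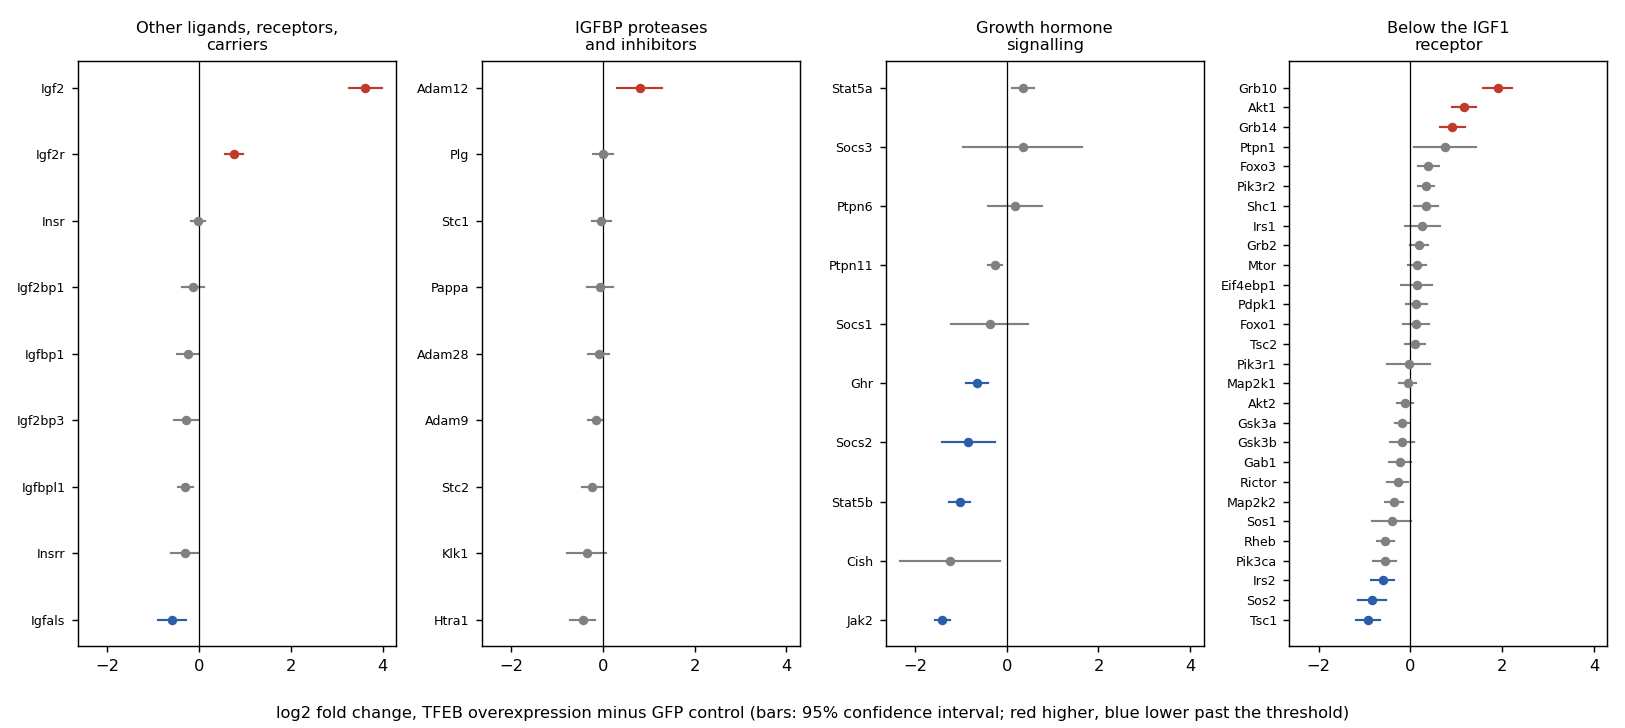
Log2 fold change of each measured pathway gene, TFEB overexpression minus GFP control, with its 95% confidence interval from limma (n = 3 arrays per group), in 4 panels by list; red genes were higher and blue genes lower past the threshold. Igf2 lies far to the right at 3.62, and Jak2, Stat5b, Socs2 and Ghr lie to the left in the growth hormone panel.

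Markers of other cells moved with the same comparison, and their part in the member changes was not tested. Fibroblast markers had a mean log2 level of 9.03 to 9.16 in GFP control against 10.29 to 10.67 in TFEB overexpression. Of these, 8 of 11 were called higher, with Postn (19.0-fold), Col3a1 (3.11-fold) and Loxl1 (2.56-fold) among them. Dcn (-0.03), Pdgfra (0.51) and Thy1 (0.81) were not called, and the groups overlapped at Dcn and Thy1. Endothelial markers averaged 7.24 to 7.48 in GFP control against 8.05 to 8.24 in TFEB overexpression, with 7 of 12 higher, Esam, Tie1 and Cldn5 among them. Emcn (0.55) was not called, nor were Tek (0.25), Vwf (0.12), Eng (0.08) and Flt1 (-0.22), at which the groups overlapped. Pericyte and smooth muscle markers averaged 8.30 to 8.72 against 9.12 to 9.22, with 3 of 9 higher, which were Pdgfrb, Acta2 and Notch3. Rgs5, Cspg4 and Des were not called, nor were Myh11 (0.23), Tagln (0.04) and Cnn1 (-0.26), at which the groups overlapped. The median log2 change of this list was 0.37, and 0.04 with the mean of all probe sets. By the means of the fibroblast, endothelial and pericyte lists, every TFEB array lay above every GFP array. The same was so for Igfbp4 at 1437405_a_at and Igfbp7 at 1423584_at, and also for the brightest probe sets of Igf1, Igf1r, Igfbp2 and Igfbp3. Over all probe sets the groups did not overlap, in either direction, at 49.9%.

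Embryonic and regenerating muscle markers averaged 6.79 to 7.08 in GFP control against 9.36 to 9.73 in TFEB overexpression, with 9 of 11 higher, Myh8, Chrna1 and Actc1 among them. Satellite cell markers averaged 5.85 to 6.04 against 6.45 to 6.65, with 3 of 7 higher, which were Chodl, Myf5 and Vcam1. Pax7 (0.26, limma adjusted p = 0.16), Cdh15, Calcr and Sdc4 were not called. Leaving out any one array other than GFP array 2 took the satellite cell count to 2. Fibre genes such as Acta1 and Ckm were higher or lower in 0 of 12. Their probe sets lie near the highest value of the data, 14.37, where changes are compressed, so this count says little about fibre content. Schwann cell and adipocyte markers were called in 0 of 5 each, at 7.33 to 7.84 against 6.84 to 7.32 for the former, with Mbp and Pmp22 the brightest, and at 7.11 to 8.09 against 6.79 to 7.21 for the latter, with Fabp4 and Adipoq the brightest. Without GFP array 2, 3 adipocyte markers and 1 Schwann cell marker were called lower, and with equal medians 1 in each list. No marker was listed at 0, and the lowest mean of any marker list on an array was 5.85, for satellite cells.

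Macrophage markers separated the arrays in a different order from that of Igf1 and Igfbp3. Their mean log2 level was 6.76, 9.05 and 6.88 in GFP arrays 1, 2 and 3 and 8.29, 9.05 and 8.999 in the TFEB arrays, so GFP array 2 lay with the TFEB arrays. In that array Igf1 at 1437401_at and Igfbp3 were the lowest of all 6. By limma 1 of the 16 macrophage genes, Cd68, was called higher, and 15 of 16 were without GFP array 2.

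**Figure D4:**
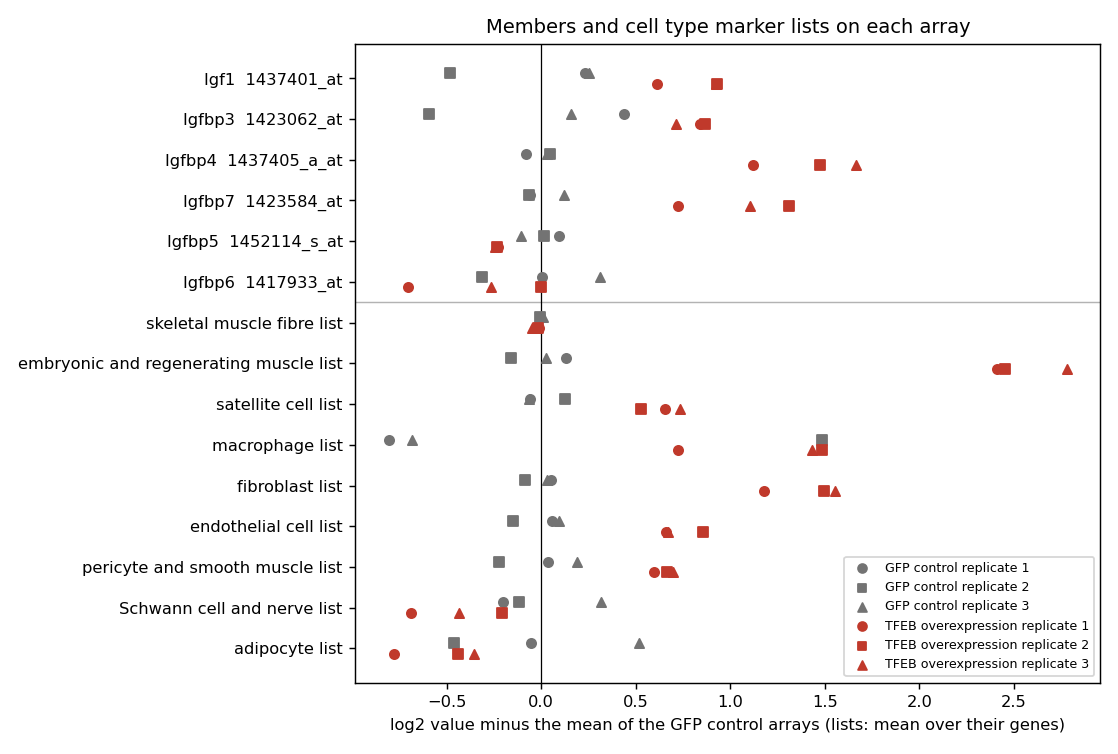
Log2 value of 6 members at their brightest probe set, and mean log2 value of the cell type marker lists, on each array minus the mean of the GFP arrays (horizontal axis), with GFP control in grey, TFEB overexpression in red and marker shape giving the replicate. GFP array 2 (grey square) sits with the TFEB arrays for macrophage markers, and is the lowest array for Igf1 and Igfbp3.

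The genes whose values followed each member most closely over the 6 arrays were found by Pearson correlation across all genes. This is a description over few arrays, to which both the group difference and single arrays can contribute. Igfbp4 was most like Cyb5r3 (r = 0.9988), Loxl1 (0.9985) and Pttg1ip (0.9981), and 733 genes exceeded 0.95. Igfbp7 was most like Cd34 (0.9981), Ctsl (0.9965) and Ddah2 (0.9949), with 274 genes over 0.95. Igf1r was most like 2310011J03Rik (0.9964), Slc20a1 (0.9932) and Fpgs (0.9932), with 261 genes over 0.95. Fewer genes followed Igf1 and Igfbp3, whose values were lowest on GFP array 2. Igf1 was most like Hs6st2 (0.9939), Ntpcr (0.9938) and Lrp6 (0.9933), with 94 genes over 0.95. Igfbp3 was most like Orai1 (0.9965), Prrg2 (0.9943) and Sema5a (0.993), with 60. The log2 changes of the genes named for Igf1 and Igfbp3 ran from 0.14 (Orai1) to 0.72 (Sema5a), and none was past both limits.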

How the data were processed

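Total RNA of injected mouse muscle was labelled with biotin and read on 1-colour Affymetrix arrays. The authors deposited 1 log2 value per probe set and array, and the submitters' processing notes name affy and RMA (background correction, quantile normalization and summary of probes), with versions not given in the sources used here. Quantile normalization partly removes a change of most transcripts in 1 direction, and RMA compresses changes of dim and bright probe sets. Arrays carry no count depth, so their number limits the precision.

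Of 22690 probe sets, 64 Affymetrix controls were left out. Platform symbols named 20380 of the rest singly, 691 several times and 1555 not at all. Groups were taken from the labels, which call the arrays biological replicates. The comparison used limma 3.58.1 under R 4.3.3, with lmFit and eBayes on a two-sided model of 2 groups without block, with Benjamini-Hochberg adjustment across the 22626 probe sets. The limits of 0.05 and 1.5-fold come from the legend of the gene list in the study, while the study's own array test is not given in sources at hand. The fit was tested on simulated data with independent normal noise of equal spread on all arrays. That test held no array set apart and so does not cover the effect of one like GFP array 2.

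The members and the gene lists were chosen with earlier results of these data known. Named are every member probe set, every pathway gene past the threshold and a few more from short lists, up to 3 genes per marker list by smallest p (the 2 brightest where none passed), the 3 genes most like each of Igf1, Igf1r and the called members, and Tfeb. In the fibroblast, endothelial, pericyte and satellite cell lists the genes not called are named too. Promoter sequences are RefSeq's (GRCm38.p6) and covered all 8 genes. Alternatives were 3 other scalings, moderated variances with trend and robust fitting, array weights, a filter at the 40th percentile of brightness, no fold limit, the two-tailed equal-variance test, another probe set rule, leaving out each array and the replicate number as a block.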

Additional observations from a re-analysis of the deposited data

How the results depend on the processing

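Of the 19 member probe sets, 12 kept their sign and their side of the threshold under every alternative that kept the fold limit, up to 14 each. These include 3 of the 5 Igfbp4 probe sets and both Igfbp7 probe sets called higher. Calls were lost under some alternative at 4 (Igf1 1437401_at, Igfbp3 and Igfbp4 1421992_a_at and 1423757_x_at), and 1 was gained (Igfbp2, at 0.59 when arrays were scaled to fast fibre genes). Without the fold limit 12 were called, those added being Igf1r 1426565_at and Igfbp2, higher, and Igfbp7 1437804_at, lower. The sign changed at 2 that were not called. Igf1 1452014_a_at was at -0.0021 with equal medians, -0.014 with array weights, and from -0.072 (without GFP array 2) to 0.20 with single arrays left out, TFEB array 2 giving -0.028. Igf1r 1452108_at ran from -0.25 to 0.0035 with single arrays left out, the latter without GFP array 2. The cause was not tested.

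The two-tailed equal-variance test called 5 member probe sets in place of 9, and 2 member genes in place of 4. Without GFP array 2, TFEB array 2 or TFEB array 3, 2 member genes were called, and over all arrays left out singly the counts ran from 2 to 4 genes, 7 to 9 probe sets and 11 to 20 pathway genes. The highest pathway count, 20 in place of 14, was that without GFP array 2. Without the fold limit 23 pathway genes were called. Scaling to fast fibre genes moved the median change of all probe sets from -0.06 to 0.04 and the share of higher calls from 55.2% to 70.1%. With equal medians that share was 45.2%. The 9 called member probe sets had positive changes under each scaling, and Igfbp3 lost its call with equal medians and with repeated quantile normalization.

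The replicate numbers did not pair the arrays. Deviations of same-numbered arrays correlated at 0.422, 0.166 and -0.233, and replicate 1 alone had its own number as best partner. With the replicate block 8 member probe sets, 3 member genes and 14 pathway genes were called, and Igfbp3 lost its call.

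The brightness filter left out Igfbp2, Igf1r 1452108_at and Igfbp7 1423585_at. Background correction, slide and scan date were not tried, since scanner files were not used here. With 3 arrays a group, the widest member SE was 0.25.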
